A study of Mus musculus with 36 samples.

Results

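The mouse mitochondrial genome encodes 37 genes, and all of them were listed by a symbol beginning with mt- in both deposited count tables, 1 for the cultures with IFNγ and 1 for those with Il-4. They were 13 protein-coding genes, 2 rRNA genes and 22 tRNA genes, which made 37 of the 49568 genes in each table. The rule uses the symbol alone.

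Mitochondrial DNA is transcribed from both strands into long precursors by a polymerase of its own. The tRNAs that lie between the other genes are cut out, which releases the mRNAs and rRNAs. The mRNAs receive short poly(A) tails in the organelle, and in several of them the tail completes the stop codon. Their 13 proteins are core subunits of respiratory complexes I (the Nd genes), III (Cytb) and IV (the Co genes) and of the ATP synthase (the Atp genes), while all other subunits come from nuclear genes. In macrophages, the use of the respiratory chain is known to differ between the inflammatory (M1) state driven by IFNγ and the alternative (M2) state driven by Il-4.

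The study asked how 2 synthetic peptides affect the polarization of RAW264.7 cells, an established mouse macrophage line. The peptide 65–79*SE and its counterpart 65–79*PE copy residues 65–79 of the HLA-DRβ chain from alleles with opposite links to autoimmune disease risk, and they stand below as SE and PE. Each of the 6 groups held 6 libraries of bulk RNA, so 36 libraries were analysed. The cells were cultured for 72 h with medium refreshed at 48 h.

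The SE and PE groups received peptide at 100 μg/ml together with IFNγ or Il-4 at 5 ng/ml. The treatment label of the control groups gives PBS alone, while their titles also name the cytokine, and whether PBS cultures received cytokine was not settled by the sources. Cytokine and peptide can therefore not be told apart in a contrast against PBS, whereas SE against PE compares peptides under the same cytokine. In every group the libraries of replicates 1–3 carry a single letter as their label and those of 4–6 a code of letters and a number, and these label sets were analysed apart. The study describes its replicates as biological and from independent experiments, but does not say which libraries belong to which, and p-values measure the spread between these libraries.

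The libraries held 20.67 to 63.16 M counts in the IFNγ table and 17.05 to 30.64 M in the Il-4 table. A count of 0 allowed up to 3 counts at 95% confidence, or 0.0475 to 0.145 CPM (counts scaled to 1 M) and 0.0979 to 0.176 CPM, and such limits cover counting error only. Macrophage markers summed to 3458–8317 and 3275–9939 CPM, with Mertk at or near 0 (at most 0.297 and 0.413 CPM), and 12 markers of other cell types summed to at most 1.63 and 0.291 CPM. RNAs that lack a poly(A) tail set the label sets apart, since small noncoding RNA took 0.000577–0.00721% of counts in IFNγ replicates 1–3 and 14.6–20.1% in replicates 4–6. With Il-4 these shares were 0.000545–0.00605% and 3.99–6.63%. The labels give the same library kit for all, and whether replicates 4–6 were prepared with it was not tested.

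1 group went against its label. A sum of 7 IFNγ-induced genes read 784–984 CPM in PBS, 4210–4560 CPM in SE and 5762–6037 CPM in PE of replicates 1–3. In replicates 4–6 it read 572–735 CPM in PBS, 398–470 CPM in the libraries labelled SE and 3370–3706 CPM in PE. The 3 IFNγ libraries labelled SE replicates 4–6 thus lacked the response of the other peptide libraries, and every result that rests on them is given apart from replicates 1–3. As for Il-4, a sum of 6 Il-4-induced genes was 1.59–2.27 CPM in PBS, 44.9–120 CPM in SE and 78.6–141 CPM in PE. This sum rested on Mgl2 (up to 77.2 CPM), Mrc1 (up to 52.7 CPM) and Arg1 (up to 11.4 CPM), while Ccl17 and Retnla had 0 counts and Chil3 at most 1 count in all 18 libraries.

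The layout of the mitochondrial genome bears on how reads are assigned. On the build GRCm38, 28 members lie on the plus strand and 9 on the minus strand, and among the protein-coding genes mt-Nd6 alone is on the minus strand. Of the 36 pairs of neighbouring genes, 9 overlap and 26 are separated by 0 to 5 bases. The largest overlap is that of mt-Atp8 and mt-Atp6, which share 43 bases. The tRNA genes are 59 to 75 bases long, shorter than the 100-base reads, so a read that covers a tRNA gene reaches into its neighbours. The strand option of the counting is not given in the sources used here, so reads of a minus-strand member such as mt-Nd6 and reads of RNA from the opposite strand cannot be told apart, and counts of overlapping genes are uncertain.

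The tRNA genes mt-Ts1 (tRNA for serine, chrM:6870-6938, minus strand) and mt-Td (tRNA for aspartate, chrM:6942-7011, plus strand) are shown because they moved in opposite directions between the label sets of the IFNγ table, as described below. They follow each other directly between mt-Co1 and mt-Co2.
mt-Ts1: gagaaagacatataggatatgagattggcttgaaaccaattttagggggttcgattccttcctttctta
mt-Td: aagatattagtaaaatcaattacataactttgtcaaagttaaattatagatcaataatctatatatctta

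As annotated, 3 protein-coding genes end in an incomplete stop codon. The last 30 bases of these genes are shown beside those of mt-Nd1, whose annotated stop is complete (capitals mark the stop codon or its first base). The annotated end of mt-Nd1 overlaps the start of mt-Ti on the same strand. The gene ends therefore do not settle which mRNAs need the poly(A) tail to complete their reading frame. The genes lie at chrM:8607-9390 (mt-Co3), chrM:10167-11544 (mt-Nd4), chrM:14145-15288 (mt-Cytb) and chrM:2751-3707 (mt-Nd1), all on the plus strand.
mt-Co3: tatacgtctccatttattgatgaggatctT
mt-Nd4: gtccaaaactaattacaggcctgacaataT
mt-Cytb: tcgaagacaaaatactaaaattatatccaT
mt-Nd1: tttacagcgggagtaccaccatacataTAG

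The nuclear genome holds old insertions of mitochondrial DNA, and a search of annotated transcripts found 11 copies of 9 protein-coding members at 95% identity or more over at least 100 bases. A block of 7 unprocessed pseudogenes lies on the minus strand of chromosome 1, between bases 24611535 and 24616197. They cover mt-Co1 in part (Gm29216), mt-Co2 (Gm28661), mt-Atp6 (Gm10925), mt-Co3 (Gm28437), mt-Nd3 (Gm28438), mt-Nd4l (Gm10222) and mt-Nd4 in part (Gm28439), with 99.71 to 100% identity. The first 60 bases of mt-Nd3 and mt-Co2, and a window of mt-Co1, are shown above the same stretch of their copies because they decide which reads can be assigned uniquely. Capitals mark the only mismatches, which are T3C in mt-Nd3 and A1066T in mt-Co1, with the member's base first and positions counted from 1 at the member's 5′ end. Nothing distinguishes mt-Co2 from Gm28661 over the 681 aligned bases.
mt-Nd3: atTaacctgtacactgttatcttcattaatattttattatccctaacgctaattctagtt
Gm28438: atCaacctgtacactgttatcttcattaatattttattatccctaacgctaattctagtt
mt-Co2: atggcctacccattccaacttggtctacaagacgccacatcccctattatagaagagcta
Gm28661: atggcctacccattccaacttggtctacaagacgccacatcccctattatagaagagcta
mt-Co1: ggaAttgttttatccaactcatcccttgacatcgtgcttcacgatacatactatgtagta
Gm29216: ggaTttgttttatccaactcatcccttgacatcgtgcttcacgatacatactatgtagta

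The 2 tables treated these copies differently. In the IFNγ table, Gm28661, Gm28437, Gm28438 and Gm10222 carried counts within 5% of those of mt-Co2, mt-Co3, mt-Nd3 and mt-Nd4l in 18 of 18 libraries, and the 7 copies summed to 0.941–1.90% of all counts. The same 7 summed to at most 0.0145% in the Il-4 table. The stretch of the genome from mt-Ts1 to mt-Nd4l (chrM:6870-10173), which holds mt-Co2, mt-Atp8, mt-Atp6, mt-Co3, mt-Nd3 and mt-Nd4l, carried 137660 to 640166 counts per IFNγ library. In the Il-4 libraries it carried 0 to 24 counts in replicates 1–3 and 95 to 465 counts in replicates 4–6, while mt-Co1 and mt-Nd4 on either side of it read 4473–14472 and 323–2969 CPM.

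**Figure D1:**
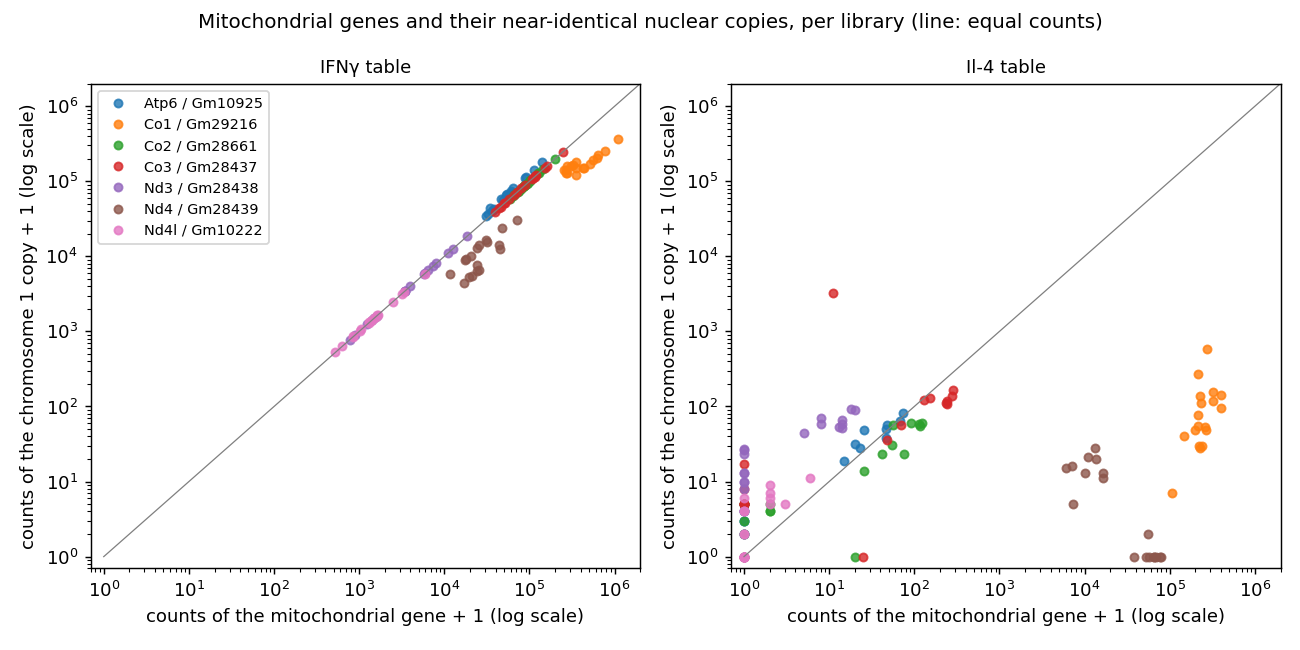
Counts plus 1 of 7 protein-coding members (x axis) against counts plus 1 of their chromosome 1 copies (y axis), both on log scales, with a point for each library and a line of equality. In the IFNγ table the members covered whole lie on or near the line, and in the Il-4 table no copy exceeds 3263 counts.

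The 6 protein-coding genes and the tRNA genes of this stretch are therefore not described as expressed or silent in the Il-4 cultures. In the IFNγ table, the members with copies were counted again under the copy, and the ratio of copy to member was 0.329–0.581 for mt-Co1, of which the copy covers 31.3%. The ratio was 1.12–1.28 for mt-Atp6 and 0.256–0.542 for mt-Nd4, of which the copy covers 63.6%. Reads of a member and its copy cannot be told apart in either table.

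**Figure D2:**
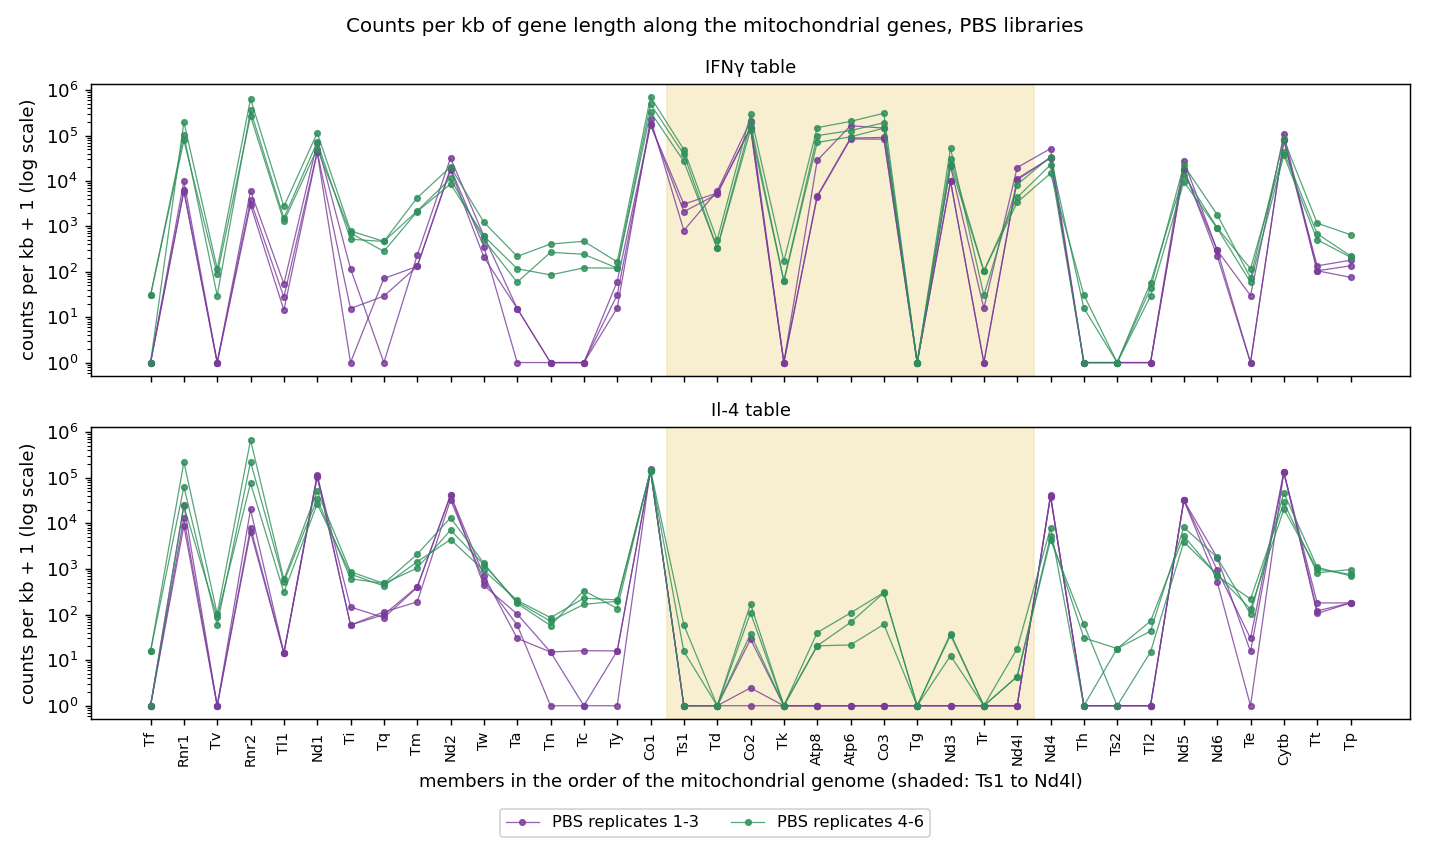
Counts per kilobase of gene length plus 1 (log scale, y axis) of the 37 members in gene order (x axis), with a line for each PBS library, by table and label set. The stretch from mt-Ts1 to mt-Nd4l is at or near 0 in the Il-4 table, and the rRNA genes are higher in replicates 4–6 in both tables.

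Detection differed by class. In the IFNγ table, the 13 mRNAs and 2 rRNAs were above 3 counts in all 18 libraries, as were 3 of 22 tRNAs (mt-Ts1, mt-Td and mt-Tw), and mt-Tg and mt-Ts2 had no count in any library. In the Il-4 table, 7 mRNAs (mt-Nd1, mt-Nd2, mt-Co1, mt-Nd4, mt-Nd5, mt-Nd6 and mt-Cytb), both rRNAs and 5 tRNAs were above 3 counts in all libraries, and mt-Td, mt-Tk and mt-Tg had no count. After the filter on low counts, 18 of 37 members were tested in IFNγ replicates 1–3, 26 in IFNγ replicates 4–6, 15 in Il-4 replicates 1–3 and 24 in Il-4 replicates 4–6. Per length, PBS replicates 1–3 of the IFNγ table gave means of 5746 CPM per kb for mt-Co1 (catalytic subunit of complex IV), 5018 for mt-Co2, 3316 for mt-Atp6, 3164 for mt-Co3 and 2625 for mt-Cytb. The lowest mRNA on this scale was mt-Nd6, the minus-strand complex I subunit, at 8.16 CPM per kb.

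In the IFNγ table, mitochondrial mRNA took a smaller share of counts with PE than with PBS in both label sets. The 13 mRNAs summed to 3.49, 2.49 and 2.67% of counts in PBS replicates 1–3 and to 1.74, 1.83 and 1.83% in PE replicates 1–3. In replicates 4–6 they summed to 3.25, 3.31 and 2.91% in PBS and to 2.53, 2.53 and 2.49% in PE. Every PE library was below every PBS library of its label set, and the mean log2 difference was −0.50 (exact permutation test within label sets, two-sided, p = 0.005, adjusted p = 0.03 over the 18 tests of class shares, n = 6 against 6). This p is the smallest the 400 arrangements can give. Without the 7 members that have near-identical copies and mt-Atp8, an alternative chosen after seeing the data, the difference was −1.09 (exact permutation test, p = 0.005). As a ratio to nuclear counts, every PE library again lay below every PBS library of its label set. The unadjusted p was again the smallest possible, but the adjusted p over the 18 tests was 0.054. With paired replicate numbers, an exact test on 6 pairs, the adjusted p was 0.1125. The smallest unadjusted p of that test is 0.03125, so a call would need most of the 18 tests at this value. The call was kept when any 1 library was left out.

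The share with SE followed PE in replicates 1–3 and PBS in replicates 4–6. It was 1.74, 1.59 and 1.92% in SE replicates 1–3, below all 3 PBS libraries, with a log2 difference of −0.71. In the libraries labelled SE replicates 4–6, which lacked the IFNγ response, it was 3.21, 3.50 and 3.66%, and the log2 difference from PBS was 0.13. Over both label sets, SE and PBS differed by −0.29 on the log2 scale (exact permutation test, p = 0.105, adjusted p = 0.236, n = 6 against 6). Within 1 label set an exact test of 3 against 3 cannot go below 0.1.

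**Figure D3:**
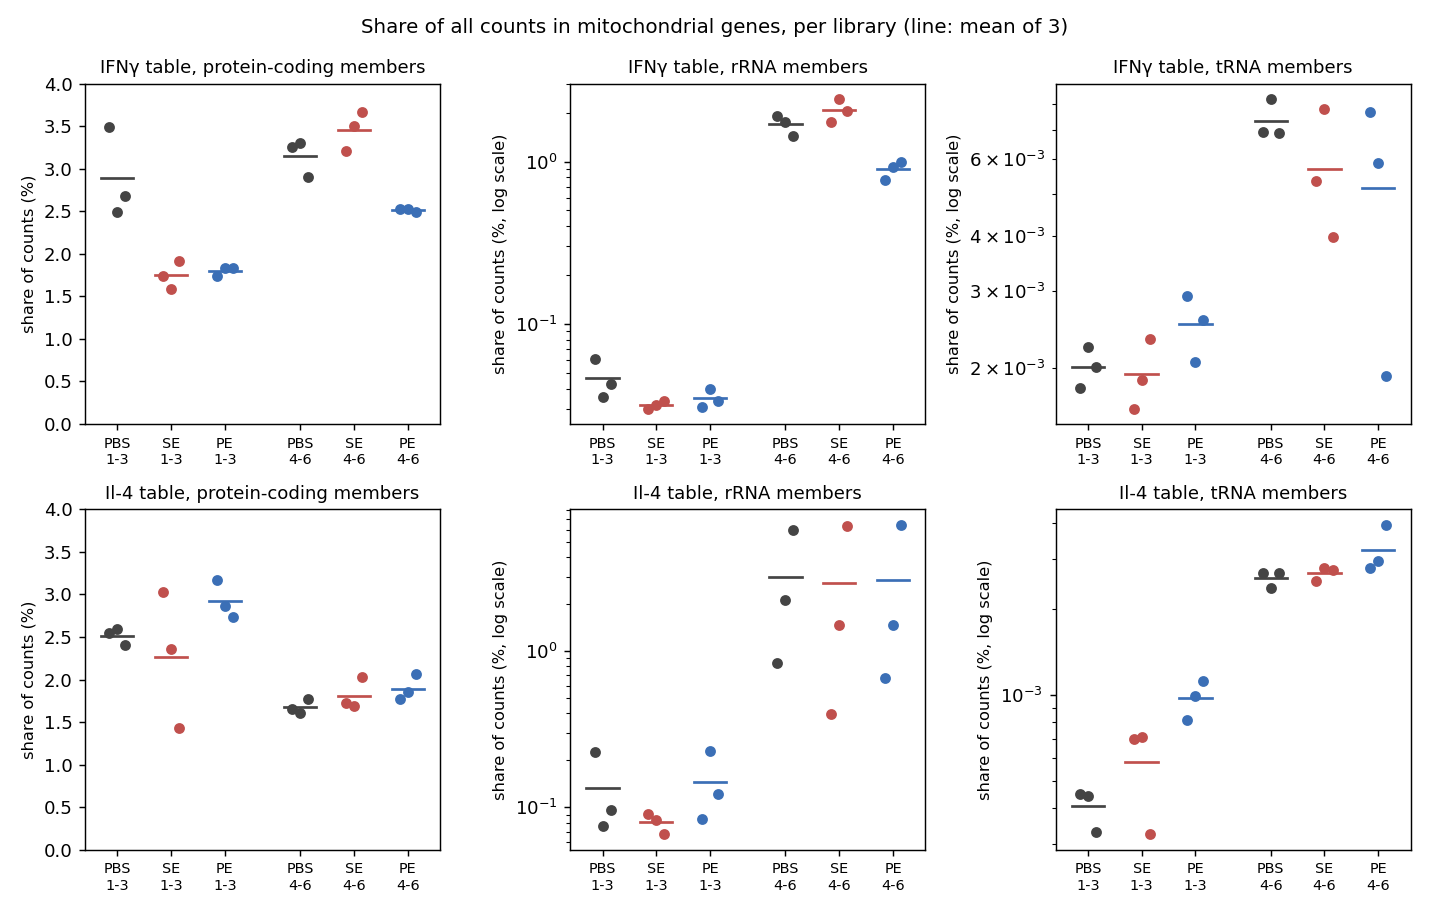
Share of all counts in percent (y axis, log scale for rRNA and tRNA) taken by the mitochondrial mRNAs, rRNAs and tRNAs in each of the 36 libraries (points), by group and label set (x axis), with lines at the mean of 3 libraries. In IFNγ replicates 1–3 the mRNA shares are 2.49–3.49% in PBS, 1.59–1.92% in SE and 1.74–1.83% in PE, and the rRNA shares are higher in replicates 4–6 of both tables.

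Within IFNγ replicates 1–3, the fall with SE was spread over the genome but did not include the most abundant mRNA. Of 18 members tested, 14 were called lower with SE than with PBS and 0 higher, where a call is a Benjamini-Hochberg adjusted p under 0.05 over all genes tested in edgeR together with a fold over 1.5. Among all genes tested, 10.2% were called lower, and the median log2 change was −1.39 for the members and −0.01 for all genes. The members called lower were 12 of 13 mRNAs, mt-Rnr2 and mt-Tw. In bulk RNA, fewer cells that carry these transcripts and less of them per cell cannot be told apart.

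For complex III, mt-Cytb read 3424, 2730 and 2856 CPM in PBS, 753, 686 and 789 CPM in SE and 843, 886 and 955 CPM in PE. The groups with peptide did not overlap PBS, and mt-Cytb fell by 1.99 ± 0.08 (log2, ± standard error of the fit, here and below) with SE and by 1.71 ± 0.08 with PE (edgeR adjusted p = 2.7e-10 and 1.7e-09).

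For complex I, mt-Nd1 read 1869, 1248 and 1315 CPM in PBS, 383, 385 and 480 CPM in SE and 516, 572 and 604 CPM in PE. It fell by 1.80 ± 0.13 with SE and by 1.35 ± 0.13 with PE (edgeR adjusted p = 8.3e-08 and 1.9e-06). The small subunit mRNA mt-Nd3 read 205, 104 and 108 CPM in PBS, 21.3, 26.3 and 37.2 CPM in SE and 36.6, 41.1 and 46.0 CPM in PE. It showed the largest fall among the members with SE, by 2.27 ± 0.24, and fell by 1.71 ± 0.23 with PE. The complex I genes mt-Nd2, mt-Nd4, mt-Nd4l and mt-Nd5 fell by 1.05 to 1.49 with SE and by 0.90 to 1.48 with PE.

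Within complex IV the 3 subunits differed. The catalytic subunit mRNA mt-Co1 read 9959, 8115 and 8561 CPM in PBS, 8966, 7733 and 9239 CPM in SE and 7549, 8327 and 7881 CPM in PE. These ranges overlapped, and the log2 change was −0.01 ± 0.08 with SE and −0.13 ± 0.08 with PE (edgeR adjusted p = 0.916 and 0.215). The other 2 subunits, mt-Co2 and mt-Co3, fell with SE by 0.76 ± 0.10 and 0.89 ± 0.14. With PE, mt-Co3 fell by 0.82 ± 0.14, and mt-Co2 changed by −0.51 ± 0.10, which did not pass the fold threshold.

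For the ATP synthase, mt-Atp6 fell by 1.07 ± 0.18 with SE and by 1.11 ± 0.18 with PE. Its overlapping neighbour mt-Atp8 read 162, 27.7 and 29.9 CPM in PBS, 17.2, 11.4 and 42.4 CPM in SE and 12.1, 12.7 and 13.9 CPM in PE. PBS replicate 1 stood far above the other PBS libraries, and the SE range overlapped PBS. The call of mt-Atp8 with SE (−1.60 ± 0.57, edgeR adjusted p = 0.0332) was lost without PBS replicate 1, SE replicate 1 or SE replicate 2 and with DESeq2.

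The large rRNA mt-Rnr2 read 270, 143 and 185 CPM in PBS, 69.4, 82.3 and 77.6 CPM in SE and 66.4, 112 and 79.8 CPM in PE, and it fell by 1.35 ± 0.20 and 1.17 ± 0.20. The small rRNA mt-Rnr1 read 168 to 266 CPM in PBS, 197 to 225 CPM in SE and 199 to 240 CPM in PE, and changed by 0.03 ± 0.13 and 0.11 ± 0.13 (edgeR adjusted p = 0.883 and 0.485). The 2 rRNAs of the same precursor thus did not move together in these libraries.

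With PE, 11 of 18 members were called lower than PBS in replicates 1–3 and 0 higher, where 9.54% of all genes were called lower. They were 10 of 13 mRNAs and mt-Rnr2. The mRNAs that were not called were mt-Co1, mt-Co2 and mt-Nd6.

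The 2 peptides differed in 1 of 18 members in IFNγ replicates 1–3, against 1.60% of all genes called lower with SE than with PE. This was mt-Nd6, at 1.14, 1.10 and 2.36 CPM in SE and 3.64, 2.46 and 2.58 CPM in PE (log2 difference −0.92 ± 0.27, edgeR adjusted p = 0.0245). The call was lost without SE replicate 1 or 2 or PE replicate 1 or 3. For mt-Cytb and mt-Nd1 the differences were −0.28 ± 0.08 and −0.45 ± 0.13 (edgeR adjusted p = 0.0235 and 0.0217), both below the fold threshold, and for mt-Co1 the difference was 0.11 ± 0.08.

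**Figure D4:**
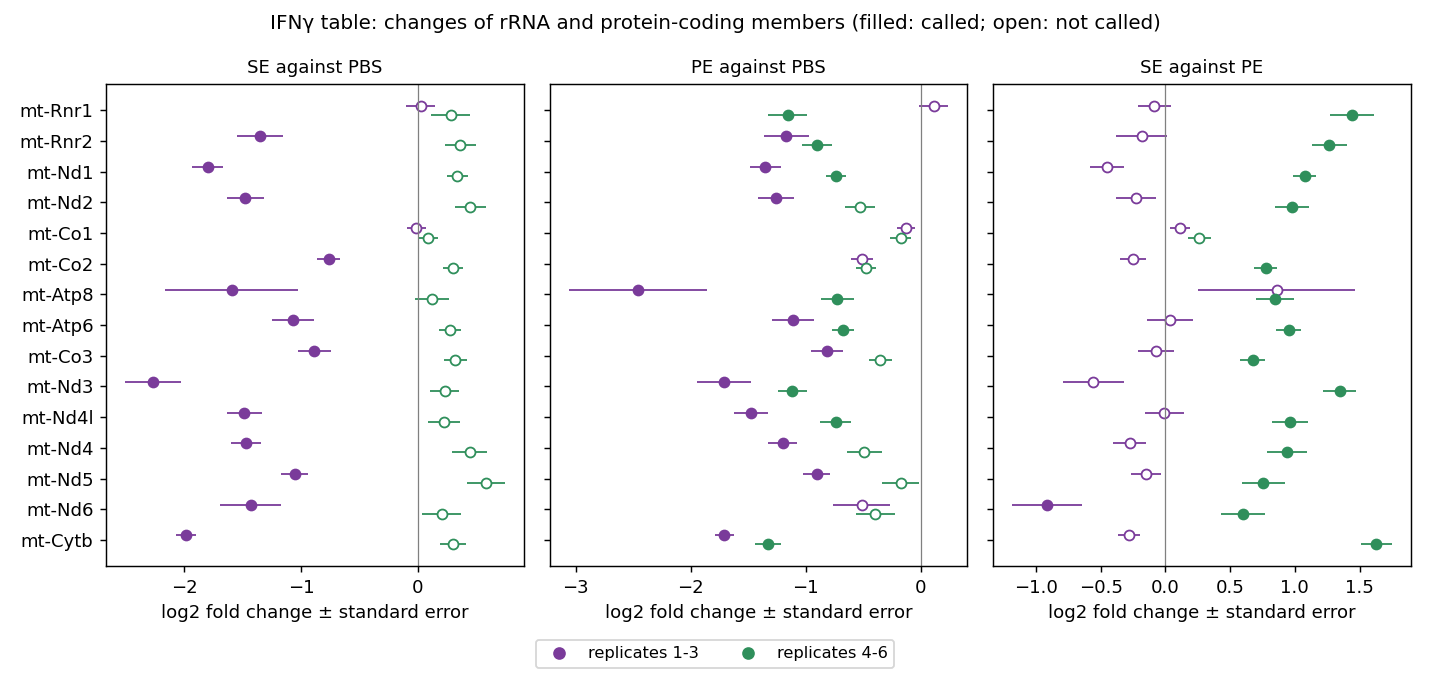
Log2 changes (x axis) of the 2 rRNAs and 13 mRNAs in the IFNγ table (y axis, gene order), for SE against PBS, PE against PBS and SE against PE in replicates 1–3 and 4–6, with bars for 1 standard error of the fit, filled points for called members and open points for the others. Against PBS, both peptides lie left of 0 for the 13 mRNAs in replicates 1–3, with mt-Co1 nearest to 0 at −0.01 and −0.13, and in replicates 4–6 PE lies left of 0 and the libraries labelled SE right of 0 for the 13 mRNAs.

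In IFNγ replicates 4–6, PE again had less mitochondrial mRNA than PBS, by smaller amounts. Of 26 members tested, 8 were called lower and 0 higher, where 4.66% of all genes were called lower. They were mt-Cytb, mt-Nd3, mt-Nd4l, mt-Nd1, mt-Atp8, mt-Atp6 and both rRNAs. For mt-Cytb, PBS read 1705, 1663 and 1208 CPM and PE 593, 608 and 624 CPM, a fall by 1.33 ± 0.12 (edgeR adjusted p = 5.7e-06). The changes of mt-Nd3 and mt-Nd1 were −1.12 ± 0.13 and −0.73 ± 0.09. The complex IV mRNAs were not called, with −0.18 ± 0.09 for mt-Co1, −0.47 ± 0.09 for mt-Co2 and −0.35 ± 0.10 for mt-Co3.

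The order of the mRNAs by their change with PE was alike in both label sets, which share no library. Spearman's rho between the log2 changes of the 13 mRNAs was 0.846, with the same sign in 13 of 13, and 0.9 over the 5 mRNAs outside the stretch described above and without copies of 99% identity. These are descriptions across genes that share precursors and are not independent.

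Both rRNAs fell with PE in replicates 4–6. The large rRNA mt-Rnr2 read 18389, 16750 and 13468 CPM in PBS and 7448, 9197 and 9393 CPM in PE, and fell by 0.90 ± 0.13. The small rRNA mt-Rnr1 read 3415, 2955 and 2312 CPM in PBS and 1095, 1379 and 1422 CPM in PE, and fell by 1.16 ± 0.17. As a class, rRNA differed between PE and PBS by −0.65 on the log2 scale over both label sets (exact permutation test, p = 0.01, adjusted p = 0.036, n = 6 against 6). The difference was −0.39 in replicates 1–3 and −0.92 in replicates 4–6. This call of the permutation test was lost as a ratio to nuclear counts (adjusted p = 0.054) and without PBS replicate 1 or 3 or PE replicate 1, 3 or 4. With paired replicate numbers the adjusted p of the exact test on 6 pairs was 0.1875. That test can hardly give a call, for the reason stated above.

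The libraries labelled SE replicates 4–6 showed no call against PBS. Of 26 members, 0 were called by edgeR and 0 by DESeq2, 11 had an unadjusted p under 0.05, and 0.720% of all genes were called in either direction. Their log2 changes ran from −0.46 to 0.65, and mt-Cytb read 1733, 2018 and 1878 CPM, above all 3 PBS libraries, with a change of 0.30 ± 0.11 (edgeR adjusted p = 0.194). Against PE, 16 of 26 members were called higher in these libraries and 0 lower, where 5.91% of all genes were called higher. They were 12 of 13 mRNAs, both rRNAs, mt-Tm and mt-Tl1, led by mt-Cytb at 1.63 ± 0.12, mt-Rnr1 at 1.44 ± 0.17 and mt-Nd3 at 1.35 ± 0.13, and mt-Co1 again changed least among the mRNAs, at 0.26 ± 0.09. The missing IFNγ response moved with this comparison, and its part in the result was not tested.

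The difference between label sets was itself tested in the 18 libraries of the IFNγ table. For SE against PBS, 17 of 26 members differed, all in the direction of a higher value in replicates 4–6, where 18.9% of all genes did so at an adjusted p under 0.05. They were 11 of 13 mRNAs, 1 of 2 rRNAs and 5 of 11 tRNAs. Most of the 11 tRNAs passed the filter on low counts only through replicates 4–6 and were near 0 in replicates 1–3. The largest mRNA differences were 2.53 ± 0.30 for mt-Nd3 and 2.31 ± 0.16 for mt-Cytb (edgeR adjusted p = 2.1e-06 and 9.3e-10), while mt-Co1 differed by 0.12 ± 0.12. For SE against PE, 16 of 26 members were higher in replicates 4–6, where 12.4% of all genes were. They were 11 mRNAs, 2 rRNAs and 3 tRNAs.

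For PE against PBS, 6 of 26 members differed between label sets, where 11.5% of all genes did in either direction. The complex I mRNAs mt-Nd1, mt-Nd2, mt-Nd4l, mt-Nd4 and mt-Nd5 fell less in replicates 4–6, by differences of 0.66 to 0.78. The small rRNA mt-Rnr1 went the other way, by −1.23 ± 0.24. This count ranged from 1 to 8 when 1 library was left out, and it was 1 without PBS replicate 1 or 6 or PE replicate 1 or 6, 2 without PE replicate 2 or 3, and 3 without PBS replicate 5 or PE replicate 5.

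The label sets also differed in the members. In PBS of the IFNγ table, 22 of 26 members were called between replicates 4–6 and 1–3, 16 higher and 6 lower in replicates 4–6, where 52.0% of all genes were called in either direction. In PBS of the Il-4 table, 22 of 24 members were called, 17 higher and 5 lower, where 49.9% of all genes were. Of the members called higher, 7 in the IFNγ table and 9 in the Il-4 table passed the filter on low counts only through replicates 4–6, so they had to be higher there. Among members that passed it in each label set alone, 15 of 18 were called in the IFNγ table, 9 higher and 6 lower, where 46.6% of all such genes were called. With Il-4, 13 of 15 were called, 8 higher and 5 lower, where 45.0% of such genes were. Of the 10 members in both of these selections, 7 were called in both tables, with mt-Rnr1, mt-Rnr2 and mt-Tw higher and mt-Nd2, mt-Nd4, mt-Nd5 and mt-Cytb lower. The tables share no library.

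Both rRNAs were higher in replicates 4–6. In PBS, mt-Rnr2 rose by 6.35 ± 0.24 in the IFNγ table and by 5.14 ± 1.03 in the Il-4 table, and mt-Rnr1 rose by 3.80 ± 0.19 and 3.03 ± 1.05 (edgeR adjusted p = 1.6e-14, 0.000313, 6.9e-13 and 0.0171). The call of mt-Rnr1 in the Il-4 table was lost without PBS replicate 2, 3 or 6. The ratio of mt-Rnr2 to mt-Rnr1 counts was 0.334–1.01 in IFNγ replicates 1–3 and 5.30–6.80 in replicates 4–6, and 0.779–1.30 and 4.31–8.27 in the Il-4 table. None of the ranges of the 2 label sets overlapped.

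Many of the tRNAs tested between the label sets passed the filter only through replicates 4–6, and no count of those called is given. The leucine tRNA mt-Tl1, which follows mt-Rnr2 directly, read 0.112, 0.0303 and 0.0623 CPM in PBS replicates 1–3 and 3.72, 3.82 and 2.69 CPM in PBS replicates 4–6 of the IFNγ table. The values of replicates 1–3 stood for 1 to 4 counts, so no fold is given.

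The serine tRNA mt-Ts1 and the aspartate tRNA mt-Td, shown above, went in opposite directions. In PBS of the IFNγ table, mt-Ts1 read 1.57, 6.48 and 4.55 CPM in replicates 1–3 and 61.5, 73.6 and 63.1 CPM in replicates 4–6, a rise by 3.98 ± 0.62. In the same libraries mt-Td read 11.8, 11.5 and 11.2 CPM and 0.631, 0.906 and 0.543 CPM, and fell by 4.10 ± 0.19 (edgeR adjusted p = 3.2e-13). Over all arms, mt-Td carried 359 to 616 counts per library in replicates 1–3 and 7 to 35 in replicates 4–6. It had 0 counts in all 18 libraries of the Il-4 table. It lies in the stretch that was nearly empty there, so no limit on its level is given.

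Among the mRNAs of PBS, the direction of the difference depended on the gene. With IFNγ, mt-Co1 rose by 1.12 ± 0.09, from 8115–9959 to 18059–20142 CPM, and mt-Nd6, mt-Nd3, mt-Atp8 and mt-Co3 were also higher in replicates 4–6. In contrast, mt-Nd4l, mt-Nd2, mt-Nd4, mt-Cytb and mt-Nd5 fell by 0.77 to 1.67. In the Il-4 table mt-Nd4, mt-Nd5, mt-Nd2, mt-Cytb and mt-Nd1 fell by 1.19 to 2.39, while mt-Co1 changed by 0.37 ± 0.20 (edgeR adjusted p = 0.113). The share of mt-Co1 among mRNA counts rose accordingly, from 25.8–37.8% to 61.4–82.9% over the Il-4 libraries. At most 0.131% of these mRNA counts came from the nearly empty stretch, so the shares do not give the make-up of mitochondrial mRNA. In the IFNγ table, which counted that stretch, mt-Co1 took 32.6–57.2% in replicates 1–3 and 49.1–62.5% in replicates 4–6. Small noncoding RNA and mRNAs of replication-dependent histones, which lack a poly(A) tail, moved with the label sets (histone share 0.00722–0.0187% against 0.236–0.629% in the IFNγ table and 0.00554–0.0139% against 0.338–1.55% in the Il-4 table), and their part in these differences was not tested.

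Between the replicate numbers of the Il-4 table, the rRNA share formed steps. It was 0.837, 2.12 and 6.03% in PBS replicates 4, 5 and 6, 0.395, 1.47 and 6.36% in SE and 0.673, 1.48 and 6.46% in PE. Libraries with the same number lay within 0.395–0.837%, 1.47–2.12% and 6.03–6.46%, without overlap between numbers, across arms that the labels treat differently. In Il-4 replicates 1–3 the share was 0.0672–0.230% and in IFNγ replicates 4–6 it was 0.767–2.43%, and in both the ranges of the numbers overlapped. The mRNA share of Il-4 replicates 4–6 stayed within 1.61–2.06%, but parts of it formed steps. The 5 mRNAs outside the nearly empty stretch and without near-identical copies took 0.262–0.359%, 0.409–0.493% and 0.621–0.718% of counts in numbers 4, 5 and 6. These ranges over all arms did not overlap either. The share of mt-Co1 among mRNA counts fell with the number in every arm, at 76–83%, 70–73% and 61–63%.

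**Figure D5:**
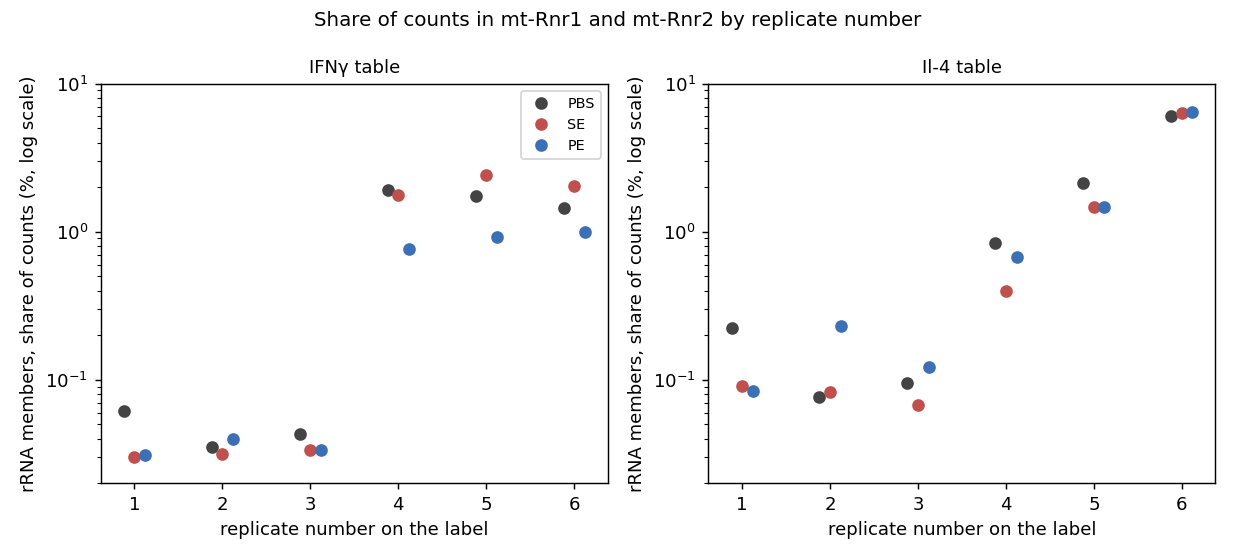
Share of all counts in percent (log scale, y axis) taken by mt-Rnr1 and mt-Rnr2 against the replicate number (x axis), by table, with a point for each of the 3 arms. In the Il-4 table numbers 4, 5 and 6 lie at 0.395–0.837%, 1.47–2.12% and 6.03–6.46% in all arms.

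With Il-4, no mitochondrial mRNA was called in any contrast of the arms, among the 7 tested in replicates 1–3 and the 11 tested in replicates 4–6. Of the 11, mt-Co2, mt-Co3, mt-Atp6 and mt-Nd3 lie in the nearly empty stretch, so the result gives no information on them. In replicates 1–3, SE against PBS gave 0 of 15 members by edgeR and by DESeq2, with 0 at an unadjusted p under 0.05, where 3.07% of all genes were called higher. SE against PE gave 0 of 15 by both tools, with 2 at an unadjusted p under 0.05 and 0% of all genes called. In replicates 4–6, SE against PBS, PE against PBS and SE against PE gave 0 of 24 by both tools, with 0, 2 and 1 at an unadjusted p under 0.05, where 1.05%, 2.24% and 0% of all genes were called in either direction. Same-numbered PBS and PE libraries of replicates 4–6 deviated together (correlations of 0.215 to 0.438). With the replicate number as a block, PE against PBS again gave 0 of 24 by edgeR, with 5 at an unadjusted p under 0.05. Of all genes, 4.71% were called in either direction in that contrast. SE against PBS and SE against PE also gave 0 of 24 by edgeR with the block, with 5 and 3 at an unadjusted p under 0.05.

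PE against PBS called 2 of 15 members in Il-4 replicates 1–3, both tRNAs and both higher, where 2.31% of all genes were called higher. The threonine tRNA mt-Tt read 0.282, 0.480 and 0.297 CPM in PBS and 0.985, 1.89 and 1.13 CPM in PE (log2 change 1.96 ± 0.39, edgeR adjusted p = 0.0146). The glutamine tRNA mt-Tq read 0.282, 0.240 and 0.297 CPM and 0.644, 0.516 and 1.55 CPM (1.75 ± 0.48, edgeR adjusted p = 0.0431). These are few reads per library. When any 1 PBS or PE library was left out, at most 1 of these calls was kept, and none without PBS replicate 3 or PE replicate 2. DESeq2 called 4 members.

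Same-numbered libraries deviated together in Il-4 replicates 1–3, and with the replicate number as a block the count rose to 5, all tRNAs and all higher with PE, where 3.24% of all genes were called higher. With this block SE against PBS and SE against PE gave 0 of 15 by edgeR, with 2 and 8 at an unadjusted p under 0.05. The 5 called for PE against PBS were mt-Ti (2.39), mt-Tt (1.94), mt-Tq (1.71), mt-Tp (1.17) and mt-Tw (1.15), with edgeR adjusted p from 0.00602 to 0.0436.

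As a class, the tRNAs took 0.00148% of counts on average in PBS and 0.00210% in PE of the Il-4 table. The log2 difference was 0.79 (exact permutation test, p = 0.005, adjusted p = 0.03, n = 6 against 6), with 1.26 in replicates 1–3 and 0.31 in replicates 4–6 and no overlap in either. This call was lost as a ratio to nuclear counts (adjusted p = 0.054) and without PBS replicate 5. With paired replicate numbers the adjusted p of the exact test on 6 pairs was 0.1125, but that test can hardly give a call. SE lay below PE by 0.54 on the log2 scale (exact permutation test, p = 0.01, adjusted p = 0.036), with overlap in replicates 4–6. The call of SE against PE was lost as a ratio to nuclear counts (adjusted p = 0.054) and without SE replicate 3, 4 or 6 or PE replicate 1, 2, 3 or 6. Its adjusted p in the test on pairs was also 0.1125, with the same limit. SE and PBS differed by 0.25 (exact permutation test, p = 0.25, adjusted p = 0.409).

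The mRNA share was 2.55, 2.60 and 2.41% in Il-4 PBS replicates 1–3 and 3.17, 2.87 and 2.74% in PE, and 1.66, 1.61 and 1.77% and 1.77, 1.85 and 2.06% in replicates 4–6. PE was above PBS by 0.19 on the log2 scale (exact permutation test, p = 0.005, adjusted p = 0.03, n = 6 against 6), a fold of 1.14. Without the members with near-identical copies and mt-Atp8, the difference was 0.20 and the adjusted p 0.524 by the same permutation test. The call was also lost as a ratio to nuclear counts (adjusted p = 0.054) and without PBS replicate 1 or 3. With paired replicate numbers the adjusted p of the exact test on 6 pairs was 0.1125, but that test can hardly give a call. SE read 3.03, 2.35 and 1.43% in replicates 1–3, where replicate 3 was below every other Il-4 library, and 1.72, 1.69 and 2.03% in replicates 4–6, and differed from PBS by −0.05 (exact permutation test, p = 0.86).

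In Il-4 replicates 1–3, SE overlapped PBS in the mRNAs. For mt-Nd1, mt-Nd2, mt-Nd4, mt-Nd5 and mt-Cytb, every PE library was above every PBS library. How many of all genes separate in this way was not counted. With the replicate number as a block, mt-Nd4 changed by 0.46 with PE (edgeR adjusted p = 0.0432), below the fold threshold. In replicates 1–3, mt-Cytb read 6085, 6012 and 5607 CPM in PBS, 7016, 6286 and 4107 CPM in SE and 7448, 6932 and 6650 CPM in PE. The log2 changes were 0.03 ± 0.16 with SE and 0.30 ± 0.16 with PE (edgeR adjusted p = 0.925 and 0.25). For mt-Co1, PBS read 8760, 8944 and 8911 CPM, SE 9760, 6315 and 4473 CPM and PE 10435, 9124 and 8303 CPM. The low values of SE replicate 3 widened the spread of that group.

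No contrast of the Il-4 table was called as different between label sets in any member (0 of 24 by edgeR for each of SE against PBS, PE against PBS and SE against PE, with 2, 4 and 1 at an unadjusted p under 0.05). Among all genes, 4.39%, 0.00705% and 0% were called in these tests. The 24 members include mt-Co2, mt-Co3, mt-Atp6 and mt-Nd3 of the nearly empty stretch, for which the result gives no information. DESeq2 was not run on them.

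Nuclear genes of mitochondrial gene expression and respiration are given beside the members, from lists of 48 and 75 genes. In IFNγ replicates 1–3, SE against PBS called 1 of 46 tested expression genes higher (Gabpb1, 0.77). Beside 10.2% of all genes called lower, it called 3 of the 46 lower. These were Lrpprc, which stabilizes mitochondrial mRNAs (−0.82 ± 0.06), Tfb2m, a transcription factor that works with the mitochondrial RNA polymerase (−0.75 ± 0.12), and Twnk, the helicase of mitochondrial DNA (−0.70 ± 0.08). The polymerase itself, Polrmt, changed by −0.13 ± 0.07 and was not called. Of the 75 nuclear respiratory subunits, 7 were called lower and 0 higher, beside 10.2% of all genes called lower, with a median of −0.21, against a median of −1.47 for the 13 mitochondrial mRNAs.

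With PE in these replicates, 3 of 46 expression genes were called lower, beside 9.54% of all genes, and 1 was called higher. Tfb2m, the coactivator Ppargc1b and the transcription factor subunit Gabpa were lower (−1.03, −0.86 and −0.68). Nrf1, an activator of nuclear genes for mitochondrial proteins, was higher (0.72). Of the respiratory subunits, 3 of 75 were called lower, beside 9.54% of all genes, which were Uqcrh of complex III (−1.27), Sdhd of complex II (−0.59) and Atp5g3 of the ATP synthase (−0.59). The median over the 75 was −0.05. Between the peptides, Uqcrh was higher with SE (0.63).

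In IFNγ replicates 4–6, PE against PBS called 1 of 47 expression genes lower (Ppargc1a, −1.51), beside 4.66% of all genes. It called 3 of 75 respiratory subunits lower, Uqcrh (−1.26), Ndufb3 (−0.68) and Atp5k (−0.66). The libraries labelled SE differed from PBS in 0 of 47 and 0 of 75 genes by edgeR. Against PE they were higher in 2 of 47 (Ppargc1b, 0.76, and Tfb2m, 0.62) and in 11 of 75, led by Uqcrh (1.72), Atp5k (0.93) and Sdhd (0.73), with a median of 0.26, beside 5.91% of all genes called higher.

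With Il-4, a minority of the nuclear respiratory subunits was called in replicates 1–3. SE against PBS called 11 of 75 higher and 0 lower, beside 3.07% of all genes called higher, led by Uqcrh (0.75), Atp5k (0.71) and Ndufa3 (0.69), with a median of 0.46. PE against PBS called 4 of 75 higher, beside 2.31% of all genes, among them Uqcrh (0.66), Ndufb4 (0.59) and Atp5k (0.59), with a median of 0.39. The expression genes gave 0 of 46 in both. In replicates 4–6, 1 of 46 expression genes was called with SE and with PE. This was Polrmt, lower in both (−0.76 ± 0.15 and −0.71 ± 0.15). Of the respiratory subunits, 0 of 75 were called. Among all genes, 1.05% with SE and 2.24% with PE were called in either direction.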

How the data were processed

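RNA of RAW264.7 cells was sequenced as single-end 100-base reads from stranded mRNA libraries, per the study's methods. The files hold deposited counts, whole numbers per gene made by the authors with featureCounts on GRCm38.p5, in 1 table per cytokine, and the submitters' processing notes also name DESeq2 1.16.1 and R 3.4.1. The aligner and the strand option are not given in the sources used here. The authors state that they counted uniquely aligned reads alone. The IFNγ table departs from this for members with identical nuclear copies, since both members and copies carry counts. Coordinates, sequences and copies came from GENCODE M21 on GRCm38 by symbol, with BLAST at 95% identity over 100 bases. Spreadsheet dates stood in place of 26 gene names.

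Tests used edgeR 4.0.16 in R 4.3.3 (quasi-likelihood F-test), TMM normalization and filterByExpr, over all genes, in the 9 libraries of each label set and in all 18 for differences between label sets. Calls needed an adjusted p under 0.05 and a fold over 1.5 (no fold for differences between label sets). CPM were scaled by TMM over 18 libraries. Class shares were compared by exact permutation within label sets (NumPy 2.4.6, 18 tests), and Spearman's rho came from SciPy 1.17.1. Library depth was 17.05 to 63.16 M counts. DESeq2 1.42.0, other normalizations, filters, a replicate block and leaving out each library were alternatives. The procedures were tested on simulated data. All genes beginning with mt- were named, and from the nuclear lists at most 3 called genes per direction and contrast, by size of change. Members and lists were chosen with earlier results of these data known.

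Replicate numbers were checked for pairing by correlating deviations from group means. In Il-4 replicates 1–3 all 9 same-number correlations were over 0.1 (0.133 to 0.510), so these numbers were taken as pairs, from the data and not the labels. Of the 18 correlations between different numbers, 4 were also over 0.1, up to 0.227. Numbers 2 and 3 were not always told apart. PE replicate 3 correlated more with PBS replicate 2 (0.199) and SE replicate 2 (0.227) than PE replicate 2 did (0.137 and 0.189). The calls with the block rest on this pairing.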

Additional observations from a re-analysis of the deposited data

Results flagged for a closer look

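The rRNA share of replicate 6 stood apart in each group of the Il-4 table, at 6.03% of counts in PBS, 6.36% in SE and 6.46% in PE, since its gap to the nearest of the other 5 libraries exceeded Dixon's critical value for 6 libraries. Of 18 groups tested, chance flags about 1 in 20, and these groups of 6 pool label sets whose shares differ. The 3 values belong to libraries with the same number.

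In the IFNγ table, the contrast of SE against PBS differed between label sets in 17 members, that of PE against PBS in 6 and that of SE against PE in 16, by the test of the difference itself. The libraries labelled SE replicates 4–6 lacked the IFNγ response (398–470 CPM over 7 genes against 4210–4560 CPM in SE replicates 1–3), and the part of this in the 17 and 16 members was not tested. The 17 and 16 include 5 and 3 tRNAs, a class with values near 0 in replicates 1–3 for most genes. The contrast of PE against PBS does not use the libraries labelled SE.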

How the results depend on the processing

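No called result changed direction under the alternatives that were run. The 5 called class shares are, in order, mRNA and rRNA of PE against PBS with IFNγ, mRNA and tRNA of PE against PBS with Il-4, and tRNA of SE against PE with Il-4. As ratios to nuclear counts they were −0.51, −0.67, 0.20, 0.79 and −0.55 (adjusted p 0.054 each), in replicates 1–3 alone −0.67, −0.39, 0.22, 1.26 and −0.83, and in replicates 4–6 alone −0.32, −0.92, 0.17, 0.31 and −0.25, where the smallest exact p is 0.1. For the first, the ratios to nuclear counts stayed apart in both label sets, and its adjusted p rose through the other tests. The mRNA share with Il-4 was 0.20 without members with near-identical copies (adjusted p 0.524). Leaving out 1 library gave −0.54 to −0.42, −0.74 to −0.54, 0.16 to 0.22, 0.71 to 0.85 and −0.64 to −0.35. The call was lost for the second without PBS 1 or 3 or PE 1, 3 or 4, for the third without PBS 1 or 3, for the fourth without PBS 5 and for the fifth without SE 3, 4 or 6 or PE 1, 2, 3 or 6.

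With the replicate block as a pairing, the class shares were −0.50, −0.65, 0.19, 0.79 and −0.54, with adjusted p of 0.1125, 0.1875, 0.1125, 0.1125 and 0.1125. With 6 pairs the smallest unadjusted p is 0.03125, so a call would need most of the tests of class shares at this value. The block called 5 members in Il-4 replicates 1–3 for PE against PBS in place of 2, and it lost mt-Atp8 (SE against PBS, IFNγ replicates 1–3) and mt-Tl1 (SE against PE, IFNγ replicates 4–6). Outside Il-4 replicates 1–3, same-number correlations were over 0.1 in 3 of 3 pairs for PE against PBS in Il-4 replicates 4–6. The same held for SE against PE in IFNγ replicates 4–6 (0.102 to 0.156). In these the block called 0 and 16 members, as without it. For each of the other contrasts the correlations were over 0.1 in at most 2 of 3 pairs. These include SE against PBS and SE against PE in Il-4 replicates 4–6, although the rRNA share there followed the replicate number in all arms.

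Without a count filter, the members called were 2 for SE against PE in IFNγ replicates 1–3, 12 for the difference of PE against PBS between IFNγ label sets, 3, 6 and 2 for SE against PBS, PE against PBS and SE against PE in Il-4 replicates 1–3, and 3, 2 and 1 for the differences between Il-4 label sets. For PE against PBS in Il-4 replicates 1–3, DESeq2 called 4 and a minimum of 10 counts in every library 0. Leaving out 1 library gave 0 to 2 for SE against PE in IFNγ replicates 1–3 (2 without SE 3), 1 to 8 for the difference of PE against PBS, 0 to 1 for PE against PBS and 0 to 2 for SE against PBS in Il-4 replicates 1–3 (1 without SE 1, 2 without SE 3), and 0 to 1 for the difference of SE against PBS between Il-4 label sets (1 without SE 1). Of the single members, 1596 recomputed values kept their call and 110 lost it. Depth limits the tRNAs most, at 78 to 4355 counts per library over all 22.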
